A study of Mus musculus with 14 samples.

Results

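In ATAC-seq of 4T1, a cell line from a mouse mammary tumor, 1186 of 108795 merged regions (1.09%) had a called peak after 48 h and after 72 h of hypoxia and in no other peak list. These late-hypoxia regions were selected on the peak calls themselves. Overlapping or touching peaks of the 7 deposited lists were merged, and a region was kept if it held a peak in both the 48 h and the 72 h list and none in normoxia or at 6, 12, 24 or 36 h. The 14 bulk samples formed 7 groups of 2: cells of the labelled normoxic culture and cells moved to 1% oxygen, harvested after 6, 12, 24, 36, 48 or 72 h. All groups are the same cultured line, with no further treatment named. For another assay of these cells, of HIF1α protein, the control culture was kept at 5% oxygen, and the level behind the normoxic ATAC-seq samples is not given in the sources used here. Each list was called on the pooled reads of its 2 samples, so that no value below has a replicate error and no test between times was possible. The normoxic group has no labelled time points, so hours in hypoxia cannot be told apart from hours in culture.

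ATAC-seq uses a transposase that inserts sequencing adapters where DNA is not covered by nucleosomes, so that promoters, enhancers and insulators appear as peaks of reads. In low oxygen the HIF factors are stabilized and bind short ACGTG or GCGTG sites at genes of glycolysis, acid handling and vessel growth. Enhancers are usually bound by combinations of factors, among them AP-1 (Fos and Jun proteins), C/EBP, NFI, TEAD and forkhead proteins, each of which prefers its own short sequence. Depth, estimated from the peak statistics because read totals are not in the lists, differed between lists: the genome background at a summit ranged from 0.926 reads (normoxia) to 3.25 reads (6 h), and the lists held 49006 (6 h) to 81732 (12 h) peaks. The labelled cell type was checked at promoters: all 10 epithelial markers examined, Epcam and Cdh1 among them, had a promoter peak in all 7 lists, against 2 of 7 immune markers and 1 of 8 fibroblast and endothelial markers.

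The sequences at the strongest late-hypoxia regions are shown first, because the motif results below were counted in such windows. Each is the plus strand of mm9 from 75 bp before to 75 bp after the highest summit, written 5′ to 3′. Capitals mark every match to the 21 motif sequences searched: AP-1 (TGACTCA), NFY (CCAAT), TEAD (CATTCC), FOX (TGTTT followed by AC, AT, GC or GT), SNAI (CAGGTG), ATOH (CAGCTG or CATCTG), CEBP (TTGCNNAA), NFI (TTGGCA) and HIF (ACGTG or GCGTG), each read on both strands, are those that occur here. The first 6 are the members that ranked best when their ranks by −log10 q at 48 and at 72 h were averaged. The Armc3 and Prkd1 regions were added after their values were seen, as the strongest members with a CEBP and an NFI match in the window.
Id2 region, chr12:25774432-25774582: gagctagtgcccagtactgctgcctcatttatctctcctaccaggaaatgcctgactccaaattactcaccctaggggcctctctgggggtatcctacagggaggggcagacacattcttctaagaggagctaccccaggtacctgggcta
Nexn region, chr3:151941514-151941664: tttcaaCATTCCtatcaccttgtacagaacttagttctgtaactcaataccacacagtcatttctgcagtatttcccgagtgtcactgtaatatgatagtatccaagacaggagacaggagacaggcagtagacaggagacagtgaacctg
Gcgr region, chr11:120400759-120400909: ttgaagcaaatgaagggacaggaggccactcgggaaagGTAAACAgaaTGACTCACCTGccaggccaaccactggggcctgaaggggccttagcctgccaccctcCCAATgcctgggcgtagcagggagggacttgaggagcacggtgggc
Git2 region, chr5:115195688-115195838: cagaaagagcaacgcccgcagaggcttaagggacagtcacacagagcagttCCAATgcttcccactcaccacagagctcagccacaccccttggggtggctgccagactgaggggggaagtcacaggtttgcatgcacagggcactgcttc
Zmynd11 region, chr13:9759377-9759527: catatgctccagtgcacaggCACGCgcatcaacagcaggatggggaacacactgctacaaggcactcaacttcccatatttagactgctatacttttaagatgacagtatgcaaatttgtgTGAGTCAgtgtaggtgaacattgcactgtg
Vps13c region, chr9:67717562-67717712: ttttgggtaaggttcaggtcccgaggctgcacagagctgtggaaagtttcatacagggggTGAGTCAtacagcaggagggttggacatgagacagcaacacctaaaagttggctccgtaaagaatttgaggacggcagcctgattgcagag
Armc3 region, chr2:19041660-19041810: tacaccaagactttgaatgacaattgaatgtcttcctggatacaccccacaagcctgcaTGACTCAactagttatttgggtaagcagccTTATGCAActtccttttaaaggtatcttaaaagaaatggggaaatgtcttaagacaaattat
Prkd1 region, chr12:51647485-51647635: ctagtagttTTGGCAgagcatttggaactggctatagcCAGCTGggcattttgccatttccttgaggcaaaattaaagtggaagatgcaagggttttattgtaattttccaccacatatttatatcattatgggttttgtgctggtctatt

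In these windows the Id2, Nexn and Git2 regions showed no AP-1, CEBP or NFI match, while the Gcgr, Zmynd11, Vps13c and Armc3 regions each held an AP-1 sequence. In the Gcgr window the AP-1 sequence runs into a SNAI sequence, which shares 2 of its bases. In the Armc3 window an AP-1 and a CEBP sequence occur together, and in the Prkd1 window an NFI sequence stands beside an ATOH sequence. Promoter members are given in the same way, for the strongest whose window lay outside annotated untranslated exons.
Bst1 promoter region, chr5:44210435-44210585: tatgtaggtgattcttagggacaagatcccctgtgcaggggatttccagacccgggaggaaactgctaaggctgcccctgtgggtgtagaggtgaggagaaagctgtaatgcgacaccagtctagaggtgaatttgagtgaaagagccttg
Zmym2 promoter region, chr14:57506845-57506995: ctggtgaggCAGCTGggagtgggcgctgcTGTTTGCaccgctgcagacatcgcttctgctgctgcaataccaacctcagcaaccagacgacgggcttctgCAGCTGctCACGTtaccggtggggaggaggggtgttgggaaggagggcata
Fgf18 promoter region, chr11:33046314-33046464: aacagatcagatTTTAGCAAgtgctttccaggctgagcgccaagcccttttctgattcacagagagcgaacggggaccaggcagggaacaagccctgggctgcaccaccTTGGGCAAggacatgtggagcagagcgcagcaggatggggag

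The Bst1 window held no match to any of the 21 motifs, the Zmym2 window held FOX, ATOH and HIF sequences, and the Fgf18 window held CEBP sequences at 2 positions.

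Late-hypoxia regions were frequent among the regions that only 2 lists shared. Of the 21 possible pairs of lists, 48 and 72 h shared 1186 regions, and only 12 and 24 h with 2082 and 12 and 48 h with 1725 shared more. Normoxia and 12 h followed with 1131, and the smallest pair, 6 and 36 h, held 59. The pairs that joined 36 h with a later time were smaller, with 448 regions for 36 and 48 h and 381 for 36 and 72 h. The number of peaks in a list moves with these counts: the 12 h list was the longest and the 6 h list the shortest, and the part of list length in the order was not tested. Of the 53766 regions with a peak at both 48 and 72 h, the late-hypoxia regions made up 2.21%. They were 1.64% of all regions with a 48 h peak and 1.92% of all regions with a 72 h peak.

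**Figure D1:**
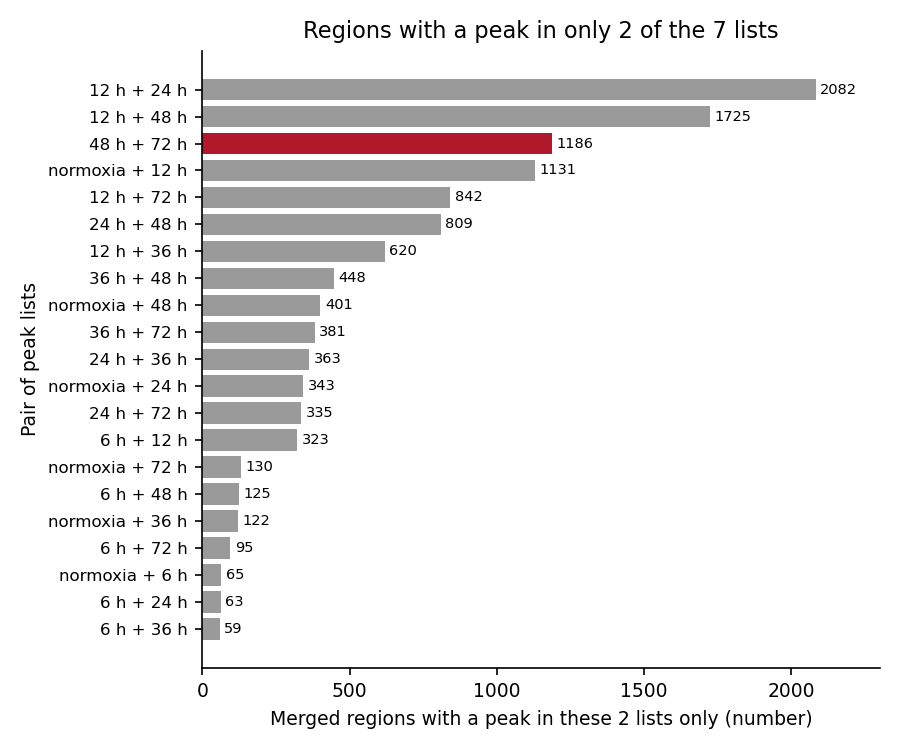
Number of merged regions with a peak in exactly 2 of the 7 lists (horizontal axis) for each of the 21 pairs of lists (vertical axis), with the 48 and 72 h pair in red. The red bar, 1186 regions, has 2 longer bars above it: 12 and 24 h (2082) and 12 and 48 h (1725).

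Late-hypoxia regions were weak and narrow beside regions of all 7 lists, but not beside the regions of the other pairs together or of a single late list. Their median −log10 q was 4.17 at 48 h (quartiles 2.92 and 5.53, highest 13.8) and 4.19 at 72 h (quartiles 2.98 and 5.70, highest 17.0). The regions found in all 7 lists had medians of 27.2 and 18.1 at the same times. The highest −log10 q of a region in any list had a median of 5.05 in the members and 4.86 in regions of any other pair. It was 3.60 in regions called at 48 h only and 3.49 in those called at 72 h only. The median fold enrichment, summit reads over local background with a small constant added to each, was 3.69 in both lists. It rested on a median of 14 summit reads in each list. Their median width was 348 bp, against 797 bp for regions of all 7 lists and 339 bp for regions of any other pair. Regions called at 36, 48 and 72 h only were stronger and wider, with a median highest −log10 q of 6.42 and a median width of 426 bp. Peak values chose the members and are given as a description.

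The peaks at 48 and 72 h lay at nearly the same position. Overlap itself follows from the selection, since 1177 members held 1 peak in each list and only overlapping or touching peaks were merged. In 1113 members (93.8%) the overlap covered at least 50% of the shorter peak. Summits lay a median of 53 bp apart and within 250 bp of each other in 1165 members. Strength was shared less: the −log10 q was higher at 48 h in 601 members and at 72 h in 585, and the Spearman rank correlation between both times was 0.106 over the 1186 members against 0.863 over the 36113 regions of all 7 lists, where the range of values is far wider. Both coefficients are across regions of the same pooled libraries, which share depth and base composition. A −log10 q of at least 5 was reached in both lists by 150 members (12.6%), in at least 1 list by 623, and a −log10 q of at least 10 in both lists by 3.

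**Figure D2:**
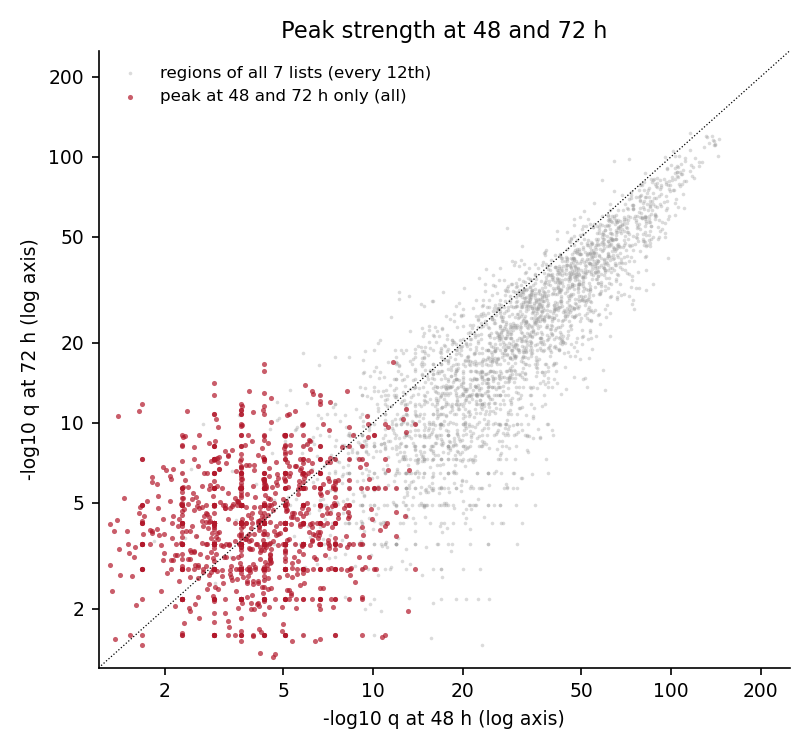
The −log10 q of the strongest peak at 48 h (horizontal, log axis) and at 72 h (vertical, log axis) for all 1186 late-hypoxia regions (red) and for every 12th region of all 7 lists (grey), with the dotted line of equality. The red points gather around 4.17 and 4.19 with no visible slope, while the grey points form a rising band at higher values.

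The weakest members by mean rank were called just above the lowest level in both lists, with a −log10 q of 1.37 at 48 h and 1.55 at 72 h near Lyplal1, 1.68 and 1.46 near Gpatch2 and 1.53 and 1.59 near Lrrc8c. Other members stood at the limit of the selection in 1 list only. The Lmo1 region had a −log10 q of 4.62 at 48 h and 1.32 at 72 h, the AI504432 region 1.31 and 4.17, and the Stap1 region 1.31 and 2.93. Just outside were regions with a further peak at the same level: one near Echdc3 with 1.31 at 12 h, one near Apoh with 1.31 in normoxia and one near Slc4a3 with 1.31 at 36 h. Of 1981 regions with peaks at 48 h, 72 h and 1 further time, 206 had a further peak under a −log10 q of 2. The further peak lay at 12 h in 937 of these regions, at 24 h in 426, at 36 h in 415, in normoxia in 133 and at 6 h in 70.

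A missing call is not a measurement of closed chromatin, so the reads that the same enrichment would give in each of the other 5 lists were estimated from the members' reads at 48 and 72 h, scaled by the reads of the regions of all 7 lists. The estimate was a median of 8.76 reads in normoxia, where 5 reads were the fewest called over the genome background, and 11.9 reads at 6 h, where 11 were needed. It was 17.9 reads at 12 h against 8, 13.8 at 24 h against 7 and 12.2 at 36 h against 8. All 1186 members reached the limit by this estimate in normoxia and at 12 and 24 h, 1183 did at 36 h and 798 (67.3%) did at 6 h. An estimate at the limit is an average, and a sampled count can fall below it. At least 2 times the limit was reached by 389 members in normoxia, by only 61 at 6 h, by 830 and 571 at 12 and 24 h and by 217 at 36 h, so that the missing call carries least weight at 6 h. The estimates also run high, because the members were picked for having a peak at 48 and 72 h, and a region with a raised local background needs more reads than the limit.

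**Figure D3:**
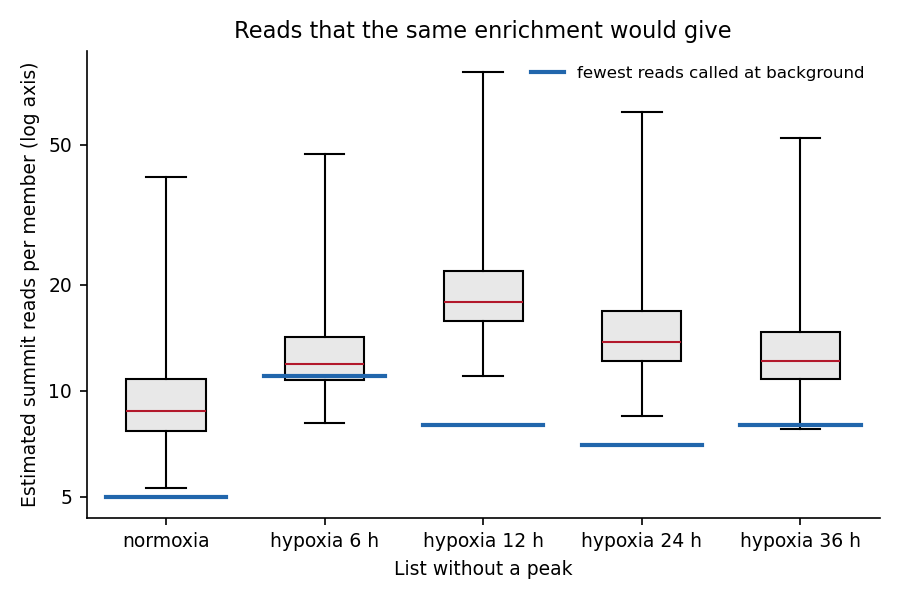
Estimated summit reads (vertical, log axis) of the 1186 late-hypoxia regions in each of the 5 lists without a peak there, with boxes for the quartiles, red lines for medians and whiskers to the extremes. Blue lines mark the fewest reads called over the genome background, which lie below the lowest estimate in normoxia and at 12 and 24 h and at 11 reads, inside the box, at 6 h.

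The strongest member lay 6450 bp from the start of Id2, which encodes an inhibitor of basic helix-loop-helix factors (chr12:25774245-25774724, mm9, intergenic). Its −log10 q was 11.6 at 48 h and 17.0 at 72 h, on 32 and 36 summit reads and folds of 4.77 and 6.25. By the same estimate, unchanged enrichment would have given it 22.3 reads in normoxia and 27.0, 44.8, 34.4 and 29.4 reads at 6, 12, 24 and 36 h, above the limit in every list. The second lay in an intron of Fam73a, 12305 bp from the start of Nexn, which encodes an actin-binding protein (chr3:151941094-151941783), with a −log10 q of 12.9 and 11.2. The third lay between genes, 4840 bp from the start of Gcgr, the glucagon receptor gene (chr11:120400546-120401068), with 13.8 and 9.91. These regions and the next, in an intron of Git2 (chr5:115195604-115195977; 12.6 and 10.3), had their 48 and 72 h summits 3 to 73 bp apart.

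The rest of the 15 strongest members lay mostly in introns and between genes. Intronic members stood in Zmynd11, which encodes a reader of modified histone H3, with a −log10 q of 12.9 at 48 h and 9.27 at 72 h, and in Vps13c, a lipid transfer protein gene, with 10.98 and 9.91. Kinase genes were among them: Frk, a Src-related kinase (9.55 and 10.6), Ptk7, a receptor-like protein of planar cell polarity (10.1 and 9.02), and Prkd1, protein kinase D1 (8.28 and 9.68). The member in Musk, the agrin receptor kinase of the neuromuscular junction, was the only exonic one of the 15 (10.1 and 9.02). A member in an intron of Exosc3 lay 10730 bp from the start of Dcaf10 (8.19 and 13.2). Intergenic members lay 79010 bp from the start of Armc3 (9.64 and 9.85), 28040 bp from that of Perp, a desmosome gene (9.64 and 8.85), and 1528 bp from that of Mpg, a DNA glycosylase gene (8.58 and 9.02). The Bst1 member was the only promoter member of the 15.

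Most late-hypoxia regions were distal. Promoter members were 102 (8.60%; exact 95% interval 7.07% to 10.3%), counted where any base of the region lay within 1 kb of a protein-coding start. Their summit could lie somewhat farther away. Of the rest, the summit of 577 (48.7%; 45.8% to 51.5%) was intergenic, that of 473 (39.9%) intronic and that of 34 (2.87%) exonic. The promoter share was 6.89% (6.41% to 7.39%) in the 10462 regions of any other pair of lists, 9.16% (6.56% to 12.4%) in the 415 regions called at 36, 48 and 72 h only and 28.6% in regions of all 7 lists. The median distance from summit to the nearest start was 22651 bp in the members and 27640 bp in regions of the other pairs. Members were more often close to constantly open sites than the other pairs' regions were. Of the members, 46.0% (43.1% to 48.8%) lay within 10 kb of a region of all 7 lists and 10.1% (8.46% to 12.0%) within 1 kb. The other pairs' regions had 35.8% (34.9% to 36.7%) and 6.68% (6.21% to 7.18%). Within 10 kb it was 40.0% (35.3% to 44.9%) of regions called at 36, 48 and 72 h only, which overlaps the members' interval. Within 1 kb these regions had 6.27% (4.13% to 9.05%). Regions called at 48 h only had 8.50% (7.70% to 9.36%) there and those called at 72 h only 8.03% (7.21% to 8.90%). Each of these 1 kb intervals overlaps that of the members. Regions of all 7 lists had another such region within 10 kb in 46.3%. Their median GC content within 100 bp of the summit was 47.8%, against 46.8% in the other pairs and 51.2% in regions of all 7 lists. These intervals cover counting error only, and neighbouring regions are not independent.

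Most members had no other member nearby. With members within 50 kb of each other joined, 1075 stood alone and 111 (9.36%) lay in clusters, of which 51 held 2 members and 3 held 3. The count that chance placement would give was not computed. By nearest starts, the clusters of 3 lay by Pcdh7, a protocadherin gene on chromosome 5, by Nit2 and Tbc1d23 on chromosome 16, and by Serpina12 and Serpina3a on chromosome 12. By nearest start, Epha7, an ephrin receptor gene in a gene-poor stretch of chromosome 4, had the most members, 5, at 222447 to 794938 bp. Their −log10 q ranged from 2.92 to 7.45 at 48 h and from 2.18 to 6.49 at 72 h. Fat4, an atypical cadherin gene, Bmp2, a bone morphogenetic protein gene, Csmd3, Crim1 and Jmjd1c had 3 each, as did Pcdh7, Atxn7l3b, Gm13691 and Cited2, which encodes a protein that competes with HIF for a coactivator. The Cited2 members lay 237516 to 1089720 bp from its start, and those of Crim1 and Jmjd1c reached as far as 955028 and 1188384 bp. The strongest of the Bmp2 members lay 93219 bp from its start and reached 12.0 at 72 h, from 6.63 at 48 h. Chromosome 3 held 100 members (8.43%), against 6.74% of the other pairs' regions, and chromosome X 19 (1.60%; 0.967% to 2.49%), against 2.61% (2.31% to 2.93%). The intervals for chromosome X overlapped, and regions called at 36, 48 and 72 h only had 1.45% there. No rule set beforehand chose these chromosomes.

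Most genes with a promoter member had another promoter region too. Such a region could lie at any annotated start of the gene, also a distant one. The share of all protein-coding genes with a promoter region in all 7 lists is not given here, so these counts are not a trait of the members. The 102 promoter members stood at starts of 109 genes, of which 72 had another promoter region that was called in all 7 lists. For 20 genes the other promoter regions were absent from at least 1 list, and for 17 genes the late-hypoxia region was the only promoter region of any list. The strongest promoter member lay 378 bp from a start of Bst1, which encodes an ADP-ribosyl cyclase of the cell surface (chr5:44210125-44210700), with a −log10 q of 11.2 at 48 h and 9.66 at 72 h. It shares its place with the gene body of Fbxl5. A second Bst1 promoter member, at chr5:44228648-44229002, had 11.9 and 3.76. The Tnfsf13 member (chr11:69498995-69499600; 6.30 and 12.8) covered a start of the gene for the TNF-family ligand APRIL, 63 bp from its summit, in an exonic UTR, and was one of the 17 with no other promoter region. Rassf9, with 5.05 and 8.996, was another. Zmym2 (11.2 and 6.63), Fgf18, a fibroblast growth factor gene (6.12 and 8.56), Cdc42bpa, a kinase downstream of Cdc42 (7.09 and 6.04), Ncoa7 (6.20 and 6.59) and Sec14l1 (5.82 and 6.49) each had a promoter region of all 7 lists too. The same held for Celsr1, a planar polarity cadherin gene (12.8 and 4.48) and Rtkn (8.23 and 4.63). Crispld2 (5.05 and 8.89) and Pou2f2, the gene of the factor Oct-2 (6.62 and 5.70), had another promoter region that was not in all lists.

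The genes near late-hypoxia regions were then read against 16 lists of hypoxia, stress, adhesion, invasion, growth factor and marker genes. Of 22380 protein-coding genes, 1620 (7.24%) had a member in the gene body or within 50 kb of a start. Of the 224 annotated list genes, 33 (14.7%) did. List genes were also nearer to the regions of other pairs, which 125 (55.8%) had against 43.4% of all protein-coding genes. The lists were chosen with earlier results of these data known, and no test was made on them.

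Among genes of glycolysis and acid handling, 4 of 23 had a member. The member 29493 bp from the start of Slc2a1, the main glucose transporter gene, was the strongest (chr4:118810857-118811240), with a −log10 q of 6.22 at 48 h and 13.2 at 72 h on 25 and 35 reads. Gpi1, a glycolytic isomerase gene, had one 45577 bp away (9.67 and 6.17), with Uba2 as the nearest start. Pdk1, which encodes a kinase that restrains pyruvate entry into mitochondria, had one at 6976 bp (2.28 and 4.19), and Car9, the carbonic anhydrase IX gene, one at 8120 bp (3.64 and 4.34), which lies inside Tpm2 and is the promoter member 583 bp from a Tpm2 start. None of these 4 regions but that of Gpi1 held a HIF sequence within 100 bp of the summit. Of 26 further HIF targets, subunits and sensors, 2 had a member: Stc1, the stanniocalcin 1 gene, at 47629 bp (6.62 and 2.18), and Mxi1, a Myc antagonist gene, at 84 bp (3.77 and 2.22).

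Invasion and matrix genes had the highest count of the lists by this rule, 5 of 16. With the gene body and 10 kb around it they counted 3, against 4 for angiogenic factors and receptors. By nearest start they counted 4, against 5 for mesenchymal transition genes. The member 20310 bp from Col1a1, a collagen I chain gene, was the strongest of all list genes (7.11 and 9.40). Mmp14, a membrane metalloproteinase gene, held one in its body (7.12 and 3.37), and the others belonged to Tnc (2.92 and 6.04), Plaur, the urokinase receptor gene (3.78 and 2.50, with Cadm4 as the nearest start), and Timp3 (2.86 and 3.27). Of 16 angiogenic factors and receptors, 4 had a member: Nrp1, a VEGF co-receptor gene (5.46 and 11.1), Efna1, an ephrin ligand gene, at its promoter (5.11 and 5.07), Vegfc (4.61 and 4.70) and Angpt2 (4.15 and 1.68). Of 15 cytokines and chemokines, 4 did: Cxcl5, a neutrophil chemokine gene, at 923 bp (11.1 and 4.19), Ccl20 (4.12 and 7.56), Csf2 (5.82 and 3.49) and Csf1, with 2 members. Cell cycle genes counted 3 of 14, with Cdkn1b (5.31 and 4.41) and Cdkn2c (6.29 and 3.84), both inhibitors of cyclin-dependent kinases, and Mki67 (3.88 and 3.63).

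Mesenchymal transition genes counted 3 of 17 (Cdh2, Tgfbr2 and Smad3), C/EBP and NFI factor genes 2 of 9, with Nfib at 10911 bp (4.74 and 7.09) and Nfic at 4558 bp (6.51 and 3.68), and the lists of AP-1 and ATF factors, protein folding stress and antioxidant genes 1 each, of 13, 13 and 10. Growth factor receptor and ligand genes counted 2 of 17. These were Pdgfra, 955 bp from its start (2.67 and 4.28), and Fgfr2. The Fgfr2 count rests on 1 transcript annotated over 3009069 bp, against 103734 bp for the next longest, and without it 32 list genes had a member. None of 16 epithelial junction and identity genes and none of 12 factors that the study discusses had one in this range. By nearest start alone, 1 of the 12 did: the factor gene Foxp1, whose member lay 152396 bp away (2.11 and 4.20). The marker lists of other cell types gave Cd68, 1 of 7 immune genes, whose only member is the Tnfsf13 promoter region 19568 bp away, and Pdgfra, 1 of 8 fibroblast and endothelial genes.

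Within 100 bp of the summit, late-hypoxia regions and the regions of all other pairs together differed in the shares with AP-1, CEBP, NFI and CTCF sequences. AP-1 was found in 244 members, 20.6% (exact 95% interval 18.3% to 23.0%), against 29.6% (28.7% to 30.5%) in the other pairs' regions, 37.8% in regions of all 7 lists and 31.2% in all merged regions. CEBP was found in 154 members, 13.0% (11.1% to 15.03%), against 9.02% (8.48% to 9.59%), 7.68% and 8.73%. NFI was found in 218 members, 18.4% (16.2% to 20.7%), against 14.7% (14.1% to 15.4%), 15.3% and 14.98%. The site of the insulator protein CTCF was found in 25 members, 2.11% (1.37% to 3.10%), against 4.33% (3.95% to 4.74%) in other pairs, although regions of all 7 lists held it in 1.39% only. In each of these 4 the intervals of members and other pairs did not overlap. The low AP-1 and CTCF shares were found in related sets too. AP-1 was in 19.0% of regions called at 36, 48 and 72 h only, 16.5% of those of 36 and 72 h and 13.5% of those called at 72 h only, and CTCF in 1.69%, 1.05% and 1.24% of them and in 2.09% of regions of 24 and 72 h. The early pair of 12 and 24 h held CTCF in 2.83% (2.16% to 3.64%), an interval that overlaps the members' interval. Pairs with normoxia held it in 5.66% (12 h) to 11.5% (72 h) and are part of the pooled 4.33%. These shares are a description over regions, since the lists hold no replicates.

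HIF sequences were not more frequent: 18.04% of members (15.9% to 20.4%) held one, against 19.5% in other pairs and 23.6% in all regions. They stood in 30.4% of the 102 promoter members, against 33.6% of promoter regions of other pairs and 54.4% of those in all 7 lists. In the 1084 distal members the HIF share was 16.9%, against 18.4% and 22.6%. Shares were close to those of the other pairs for FOX (17.6% against 16.5%), TEAD (15.3% against 16.1%), NFY (24.4% against 24.5%), NRF2 (10.5% against 11.7%) and GRHL (2.53% against 1.76%), with overlapping intervals in all of these. In the 150 members with a −log10 q of at least 5 at both times, however, TEAD was found in 24.7% (18.001% to 32.4%) and FOX in 23.3% (16.8% to 30.9%). Both lay above the shares in the other pairs, whose regions were not filtered by strength. Strong members are thus set beside regions of any strength, and the part of peak strength in this was not tested. E2F (TTTCGCGC or TTTGGCGC) was found in 1 member (0.084%), against 0.182% of other pairs' regions and 0.248% of all regions. CRE (TGACGTCA) was found in 3 members (0.253%), against 0.440% and 0.675%. Both were rare in every one of these sets, and the intervals of members and other pairs overlapped. A NRF2 match (TGACNNNGC) can share bases with an AP-1 match, and 110 members (9.27%) held none of the 21 motifs.

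**Figure D4:**
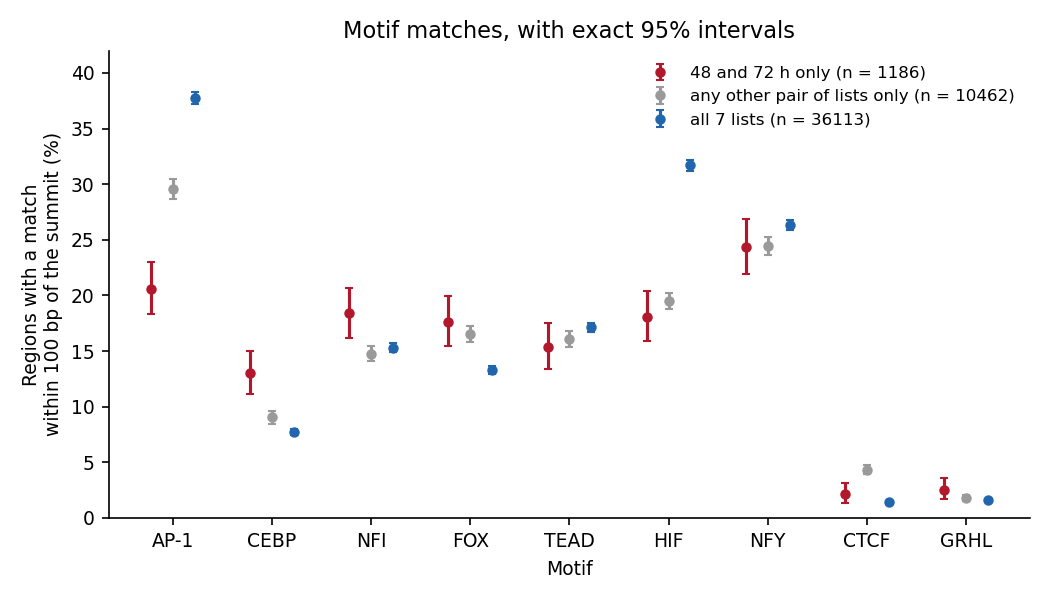
Share of regions with a motif match within 100 bp of the summit (vertical, %) for 9 motifs, in late-hypoxia regions (red), regions of any other pair of lists (grey) and regions of all 7 lists (blue), with exact 95% intervals. Red lies below grey for AP-1 (20.6% and 29.6%) and CTCF and above it for CEBP (13.0% and 9.02%) and NFI (18.4% and 14.7%).

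The same split held away from promoters. In the 1084 distal members AP-1 was in 21.0%, against 30.5% of distal regions of other pairs and 49.7% of those in all 7 lists, CEBP in 13.3% against 9.11% and 8.98%, and NFI in 19.1% against 15.05% and 18.2%. For distal NFI the members' interval, 16.8% to 21.6%, held the value of the regions of all 7 lists and not that of the other pairs. AP-1, CEBP and NFI shares did not follow the strength of the members, while the TEAD share was lower in each weaker group. With the members split by mean rank into a strongest, a middle and a weakest group of 395, 395 and 396, AP-1 was in 19.7%, 20.8% and 21.2%, CEBP in 14.9%, 11.6% and 12.4% and NFI in 17.97%, 20.5% and 16.7%. TEAD was in 18.5% (14.8% to 22.7%), 15.9% and 11.6% (8.63% to 15.2%), FOX in 20.5%, 15.9% and 16.4% and GRHL in 1.52%, 2.28% and 3.79%, with overlapping intervals between the strongest and the weakest group in each. AP-1 matches sat toward the summit, with 66.3% of 252 matches within 50 bp of it, a share close to the 66.7% in regions of all 7 lists, while 54.4% of CEBP matches and 55.2% of NFI matches did.

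Set out by pair of lists, the CEBP share was highest in late-hypoxia regions, at 13.0%, then in regions of 36 and 72 h (12.3%; 9.21% to 16.1%) and of 36 and 48 h (11.8%; 8.99% to 15.2%). The other 20 pairs ranged from 5.48% to 12.3% with a median of 9.52%. These leading values did not differ beyond their intervals. Regions called at 36, 48 and 72 h only held CEBP in 14.7% (11.4% to 18.5%), and those called at a single late time in 9.71% at 48 h and 10.8% at 72 h. The NFI share was highest in the pairs of 72 h with 6, 24 and 12 h (22.1%, 21.2% and 19.8%), and late-hypoxia regions came next with 18.4%. The other pairs with 72 h were lower, with 15.4% for normoxia and 72 h and 13.6% for 36 and 72 h, and regions called at 36, 48 and 72 h only had 13.0%. Regions called at 72 h only held NFI in 17.6%, against 13.8% at 48 h only. For AP-1 late-hypoxia regions ranked 16th of 21, next to 36 and 48 h (20.3%), while the early pair of 12 and 24 h ranked first with 35.2% (33.2% to 37.3%). Pairs with a shared list share its depth, and the part of depth in these orders was not tested.

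**Figure D5:**
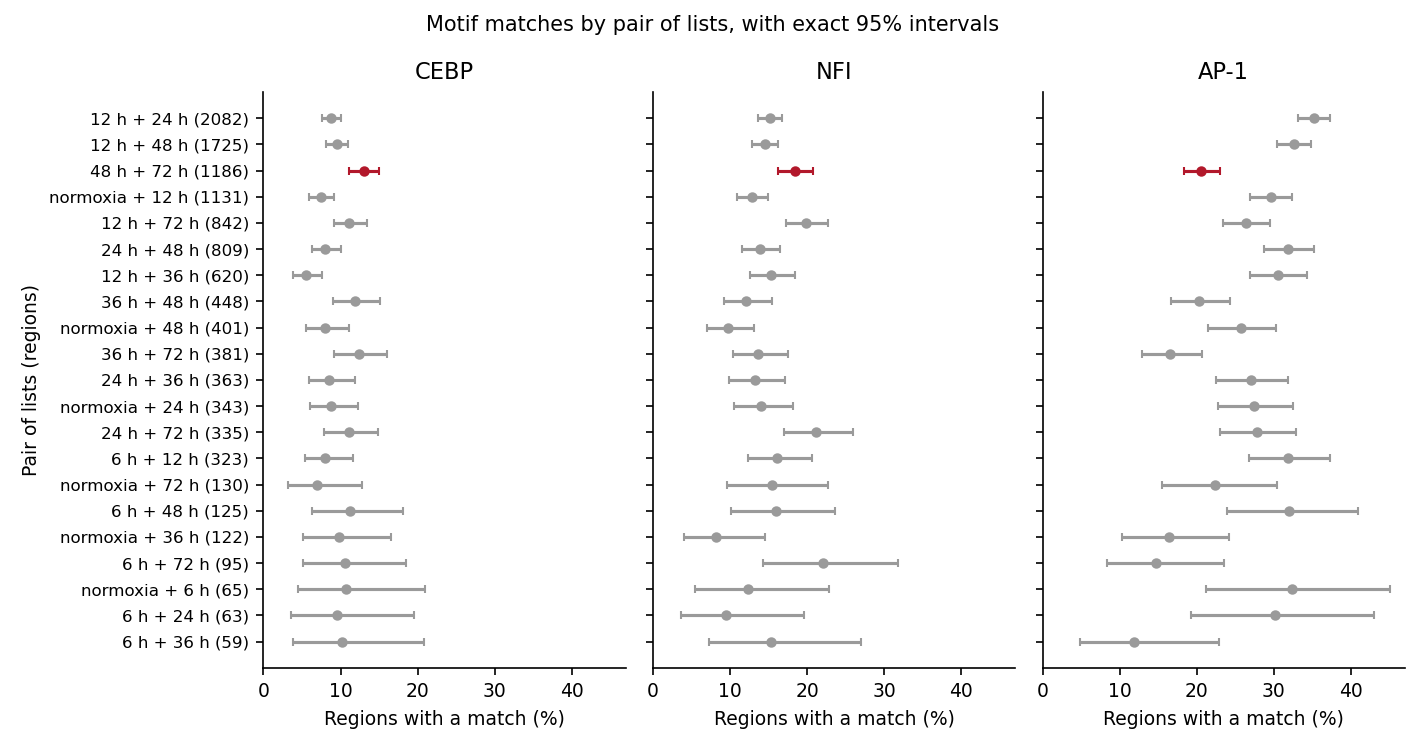
Share of regions with a CEBP, NFI or AP-1 match (horizontal, %) for each of the 21 pairs of lists (vertical, with the number of regions), as points with exact 95% intervals and the 48 and 72 h pair in red. The red point is the highest of the CEBP panel at 13.0%, below 3 other pairs in the NFI panel at 18.4% and 16th in the AP-1 panel at 20.6%.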

How the data were processed

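Bulk ATAC-seq of 14 samples was used as 7 peak lists. According to their methods and notes, the authors aligned paired reads to mm9 with Bowtie2 2.1.0, removed duplicates with Picard 1.79, pooled both replicates and called peaks with MACS2. For each summit the deposited files give a fold enrichment. This is the ratio of its reads to the background around it, with a small constant added to each. Against the same background the files give a p-value and a q-value as −log10, and none of these values is scaled between lists. A deposited score, a whole number near 10 times −log10 q, was not used. The lowest −log10 q was 1.30 to 1.31 in every list, the level of a q of 0.05, looser than the threshold in the methods. Filters against mitochondrial-like and excluded sequences were not applied here.

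Groups came from the sample labels. The members and the gene and motif lists were chosen with earlier results of these data known. The highest −log10 q stood for a list in a region. Summit reads were recovered as the whole number that gives both the deposited fold and −log10 p within 0.001. A list's lowest local background was its genome background. Reads expected elsewhere were the excess over background, scaled by the median excess in regions of all 7 lists, averaged over 48 and 72 h. Sequence was read from NCBIM37, which is mm9, and genes from GENCODE vM1; repeats are not marked in it, so the planned repeat share is not given. Further motifs searched were ETS (CCGGAAG), RUNX (TGTGGTT), GRHL (AACCNGTT), STAT (TTCNNNGAA), POU (ATGNATA), PITX (TAATCC), GR (ACANNNTGT), TFE (CACGTGAC, which holds a HIF sequence) and CTCF by its consensus. Intervals are exact (Clopper-Pearson, 95%) and cover counting error only. Named were the 15 strongest members by mean rank, the 12 strongest promoter members, up to 25 list genes, the 6 genes with most members and 3 regions on each side of the limit; list genes beyond that number were named after their values were seen. Planted regions, summit reads and motifs were recovered on simulated data. Tools were scipy 1.17.1, pandas 2.3.3, numpy 2.4.6 and matplotlib 3.10.9 under Python 3.11.15.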

Additional observations from a re-analysis of the deposited data

How the results depend on the processing

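No paired analysis was possible because the lists pool the replicates of each group, and for the same reason no replicate could be left out. The number of late-hypoxia regions, 1186, stayed within 1.5 times under 10 of 13 alternatives. It fell to 150 when the 48 and 72 h peaks needed a −log10 q of at least 5 with the other lists kept in full, and to 305 with the 20000 strongest peaks of every list, where fewer peaks enter by construction. It rose to 2123 when a peak at 12 h was allowed. With a −log10 q of at least 5 required in every list, 851 regions qualified, and how many of them are among the 1186 was not counted. The promoter share, 8.60%, became 21.8% within 5 kb of a start and 10.9% with the starts of all annotated genes. List genes with a member numbered 22 with the gene body and 10 kb around it and 36 by nearest start, against 3.73% and 4.81% of all protein-coding genes. The AP-1 and CTCF shares stayed below, and the CEBP and NFI shares above, those of the other pairs with the whole region searched, with 50 bp on each side and with the stricter presence; for the last the other pairs were left unfiltered. Under stricter presence, with 150 members, the intervals of CEBP (8.34% to 19.8%), NFI (12.2% to 25.1%) and CTCF (0.731% to 6.69%) held the other pairs' values of 9.02%, 14.7% and 4.33%, and that of AP-1 (14.5% to 28.03%) did not hold 29.6%. The TEAD share, below the other pairs in the main count, was above them under all 3 alternatives (24.96% against 24.4% in the whole region, 8.94% against 8.59% with 50 bp and 24.7% against 16.1% under stricter presence). The HIF share was above theirs in the whole region (30.4% against 29.6%) and under stricter presence (20.7% against 19.5%). Weak peaks of about 14 reads limit every count, and without replicates no difference between times could be tested.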
